A study of Homo sapiens with 4 samples.

Results

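The genes described here are 10 feedback inhibitors of the ERK pathway, namely *SPRY1*, *SPRY2* and *SPRY4* of the sprouty family, *SPRED1* and *SPRED2* of the sprouty-related SPRED family, and *DUSP1*, *DUSP4*, *DUSP5*, *DUSP6* and *DUSP7*, which encode dual specificity phosphatases. They were chosen by gene name, with every listed transcript kept, and all 10 had at least 1 row. Together they held 35 of the 75165 transcripts and 10 of the 20298 genes in the RIP-seq table.

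The ERK pathway carries growth factor signals from receptor tyrosine kinases through RAS, RAF and MEK to the kinases ERK1 and ERK2. Active ERK induces genes whose products switch the pathway off again. Sprouty and SPRED proteins act upstream, between the receptor and RAF, whereas the DUSP proteins remove phosphates from MAP kinases themselves. MDA-MB-231 is a triple negative breast cancer line.

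RIP-seq sequences the RNA that is recovered with a protein by an antibody. MDA-MB-231 cells were transduced with a lentiviral vector for 3x flag-YTHDC1, selected with puromycin and UV-crosslinked. By the protocol nuclear lysate was the starting material of all 4 libraries, although in the labels the input is total RNA. Of these, 2 were prepared from RNA recovered with an anti-Flag antibody (IP-YTHDC1) and 2 from the input, and the same overexpressing, puromycin-selected cells served in both groups. YTHDC1 is a nuclear reader of *N*6-methyladenosine, and it was overexpressed here, so binding at its endogenous level was not measured.

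For each transcript the value used is the authors' mean normalized count over all 4 libraries, IP and input together. These means have no replicate values, so no error, library depth or test can be given for any of them. Whether a transcript was higher in the IP or in the input is not analysed here, because the table holds that contrast only as the authors' own comparison. The values below therefore say how many reads each transcript held in the combined IP and input RNA and how a gene's reads were divided among its transcripts. They are not divided by transcript length, so a longer transcript collects more reads than a shorter one at the same number of molecules. Reads that match several transcripts were split among them by a statistical estimate. Every transcript share below is therefore an estimate, and how many reads were unique to a transcript is not known. By the paper's methods the RNA was depleted of ribosomal RNA. How many reads came from unspliced nuclear RNA, and to which transcripts they were counted, is not known.

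All 6 mesenchymal-like markers of the cell line were listed, with gene totals (sums of mean normalized counts over a gene's transcripts) from 7624 for *CAV1* to 80785 for *VIM*, which encodes vimentin. *ESR1* and *PGR*, the estrogen and progesterone receptor genes, had no row, and *CDH1*, which encodes E-cadherin, was listed with 10.0 through 1 transcript. Among the other luminal or epithelial markers *EPCAM* had 78.3, *GATA3* 584 and *KRT19* 7521. *HBB* and *ALB*, markers of other cell types, had no row, while *PTPRC* had 3.81 and *PECAM1* 102. *YTHDC1*, the overexpressed gene, had 55488. The gene totals of the 20298 genes had a median of 227, and those of the 14050 protein-coding genes had a median of 588.

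All 10 feedback genes had more reads than the median of all listed genes, noncoding ones included, and 9 of them lay above the 75th percentile. Their median percentile was 83.3 among all listed genes and 75.6 among genes with a protein-coding transcript. The lowest total was that of *DUSP1* (966, above 72.5% of all genes) and the highest that of *DUSP4* (15242.5, above 98.8%). *DUSP6* followed with 5451 and *SPRY4* with 4806. The other 6 lay close together, from 1464 for *DUSP7* to 2262 for *DUSP5*, and without replicate values no order among them can be given. *DUSP4* alone held 41.1% of the 37124 mean normalized counts of the 10 genes, and the 10 genes held 0.111% of all counts in the table.

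**Figure D1:**
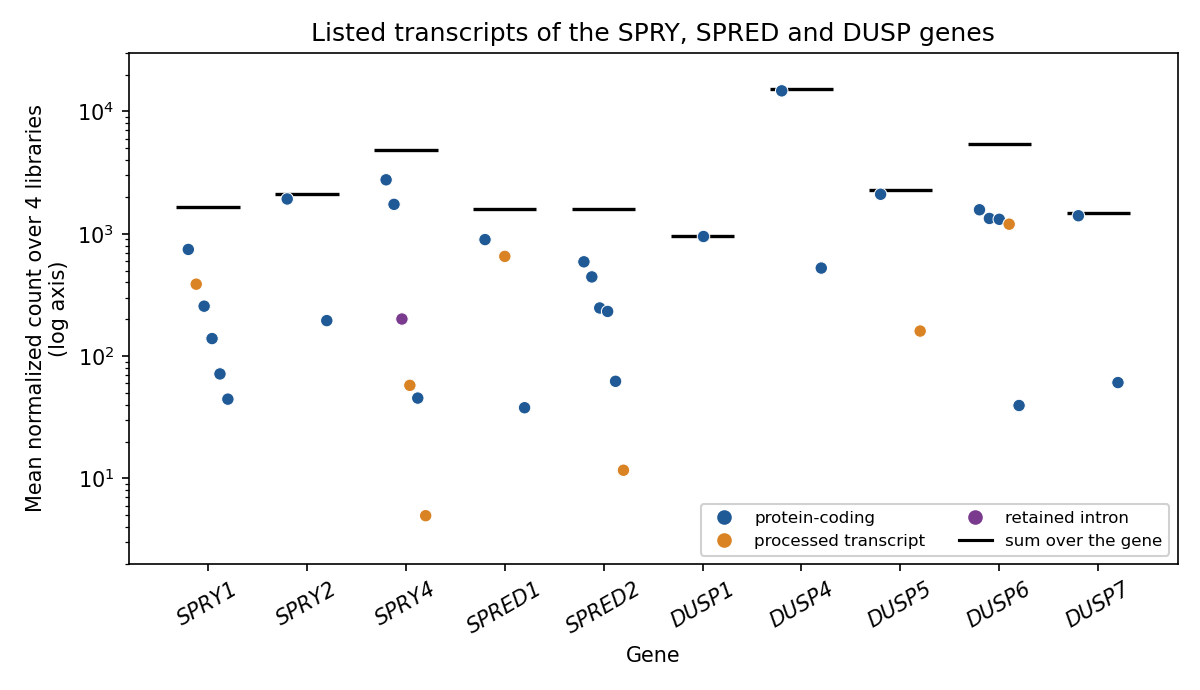
Mean normalized count over the 4 libraries (log axis, the authors' values) of each of the 35 listed transcripts, by gene and coloured by annotated type, with a black line at the sum over each gene. DUSP4-201 stands highest at 14718, and 4 DUSP6 transcripts lie together between 1197 and 1570.

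Sprouty proteins are membrane-associated antagonists of receptor tyrosine kinase signalling that share a cysteine-rich C-terminal domain. Positions are given in GRCh38.p14 from RefSeq. The family differed in how its reads were divided. *SPRY2* (ENSG00000136158.12, chr13:80335976-80341126) read almost as a single transcript, *SPRY4* (ENSG00000187678.9, chr5:142310430-142325021) as a pair of coding transcripts, and *SPRY1* (ENSG00000164056.11, chr4:123396795-123403760) as a mixture.

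*SPRY2*, whose product binds GRB2 and the ubiquitin ligase CBL, had 2 listed transcripts, both protein-coding. SPRY2-202 had a mean normalized count of 1924 and held 90.8% of the gene total, and SPRY2-201 had 195. Among 2012 other protein-coding genes with 2 listed transcripts, the most abundant one held a median of 79.1% of the total.

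*SPRY4* had 6 listed transcripts. SPRY4-201 had 2759 and SPRY4-202 had 1738, both protein-coding, and together they left little for the rest of the gene. SPRY4-206, the one retained-intron transcript among all 35, had 201, or 4.18% of the gene total. The remaining 3 were SPRY4-203 with 57.7, SPRY4-205 with 45.4 and SPRY4-204 with 4.96, the lowest value of any transcript of the 10 genes. An antisense lncRNA gene, *SPRY4-AS1*, was listed with a total of 67.0 over 3 transcripts. No RefSeq span under that name was found to overlap *SPRY4*, whereas the lncRNA gene *SPRY4-IT1*, which has no row, overlaps it by 703 bases. The libraries were made with a stranded kit, and the strand setting of the counting is not given in the sources used here.

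*SPRY1* also had 6 listed transcripts. The most abundant, SPRY1-204, is protein-coding and had 744, or 45.3% of the gene total. In second place came SPRY1-206, annotated as a processed transcript (a spliced RNA of the gene with no annotated open reading frame), with 387 or 23.6%. SPRY1-207 had 256 or 15.6%, and the other 3, all protein-coding, ranged from 44.5 to 139. No transcript held over 50% of the reads of *SPRY1*, where the median top share of 1187 protein-coding genes with 6 listed transcripts was 52.8% with quartiles of 41.4% and 68.9%.

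**Figure D2:**
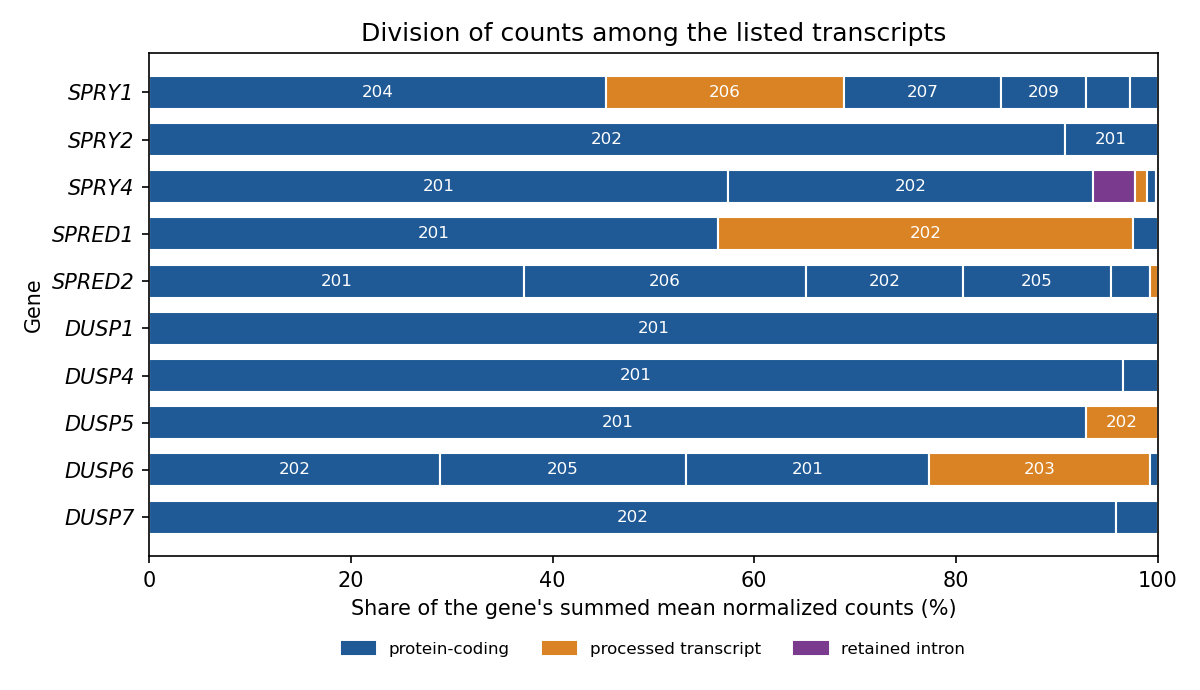
Share (%) of each gene's summed mean normalized counts held by each listed transcript, from the most to the least abundant, coloured by annotated type and labelled with the transcript number where the share is at least 7%. One transcript fills over 90% of SPRY2, DUSP1, DUSP4, DUSP5 and DUSP7, whereas DUSP6 is cut into 4 similar parts and the processed transcripts of SPRED1 and SPRY1 take 41.2% and 23.6%.

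SPRED proteins carry an EVH1 domain beside a sprouty-like domain, and SPRED1 brings neurofibromin, the RAS-inactivating product of *NF1*, to the membrane. The totals of *SPRED1* (ENSG00000166068.13, chr15:38252836-38357249) and *SPRED2* (ENSG00000198369.10, chr2:65307175-65432599) were 1586.1 and 1586.2, yet the reads behind them were divided in different ways.

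In *SPRED1*, SPRED1-201 (protein-coding) had 895 and SPRED1-202 (processed transcript) had 653. The latter held 41.2% of the gene total, the largest share of any transcript of the 10 genes that is not annotated as protein-coding. Among 1901 protein-coding genes with 3 listed transcripts, the median share outside protein-coding transcripts was 3.99%, and 84.9% of them had a lower share than *SPRED1*. SPRED1-203, also protein-coding, had 37.8. Both SPRED genes are long, spanning 104 kb and 125 kb, whereas none of the other 8 spans more than 17.6 kb.

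*SPRED2* had 6 listed transcripts, of which 5 were protein-coding and held nearly all reads. SPRED2-201 had 590, SPRED2-206 had 444, SPRED2-202 had 247 and SPRED2-205 had 232, so that shares fell from 37.2% to 14.6% over these 4. SPRED2-207 had 62.2 and SPRED2-208, its only processed transcript, had 11.7 or 0.736%. The top share of 37.2% was below that of most genes with 6 listed transcripts, of which 16.8% had a lower one.

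DUSP1, DUSP4 and DUSP5 are nuclear phosphatases. DUSP1 acts on JNK, p38 and ERK, and DUSP5 is selective for ERK. *DUSP1* (ENSG00000120129.6, chr5:172768096-172771195) had a single listed transcript, DUSP1-201, which held the whole total of 966. *DUSP4* (ENSG00000120875.9, chr8:29333064-29350684) had 2, both protein-coding: DUSP4-201 with 14718 and DUSP4-202 with 524. The first had 28.1 times as many reads as the second and lay above 99.8% of the 75165 transcripts.

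*DUSP5* (ENSG00000138166.6, chr10:110497907-110511533) had DUSP5-201 (protein-coding) with 2102 and DUSP5-202 (processed transcript) with 160. A processed pseudogene, *DUSP5P1*, was listed with 306, and whether reads were exchanged between it and *DUSP5* was not tested.

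DUSP6 and DUSP7 are cytoplasmic phosphatases that are selective for ERK. *DUSP7* (ENSG00000164086.10, chr3:52048919-52056571) had 2 listed transcripts with most reads in 1, as did *DUSP4*, *DUSP5* and *SPRY2*. It had 1403 for DUSP7-202 and 60.7 for DUSP7-201, both protein-coding. Its top share of 95.9%, like the 96.6% of *DUSP4*, lay above the upper quartile (91.8%) of genes with 2 listed transcripts.

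In *DUSP6* (ENSG00000139318.8, chr12:89347235-89352501) the reads were divided most evenly of the 10 genes. Of its 5 listed transcripts, 4 had similar values, at 1570 for DUSP6-202, 1333 for DUSP6-205, 1312 for DUSP6-201 and 1197 for DUSP6-203. The first 3 are protein-coding and the last is a processed transcript, which held 22.0% of the gene total. The fifth, DUSP6-204, had 39.5. With 28.8% the most abundant transcript of *DUSP6* held less than in nearly all of 1416 protein-coding genes with 5 listed transcripts, of which 1.48% had a lower top share and whose median was 56.5%. Expressed as an effective number of transcripts (the inverse of the summed squared shares), *DUSP6* had 4.02, against a median of 2.41 in those genes. The reads were divided among transcripts by RSEM, which splits reads that match several isoforms by a statistical estimate, and how many reads were unique to each *DUSP6* transcript is not known. In RefSeq a readthrough gene, *POC1B-DUSP6*, overlaps 4437 bases of *DUSP6*, and no row carries its name.

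**Figure D3:**
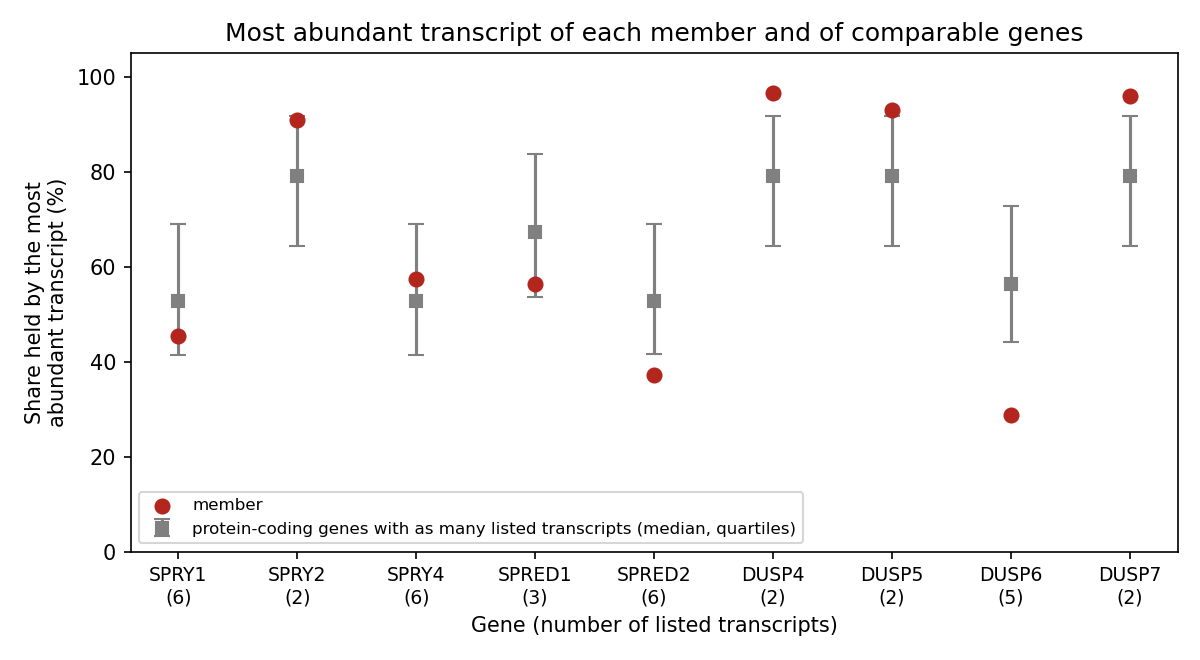
Share (%) of the gene total held by the most abundant transcript in the 9 genes with at least 2 listed transcripts (red), with the median and quartiles (grey) of protein-coding genes that have as many listed transcripts. DUSP4, DUSP5 and DUSP7 lie above the upper quartile, and SPRED2 and DUSP6 lie below the lower one.

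Over the 10 genes, 7 had a transcript with over 50% of the gene total, or 70.0%, against 73.3% of all 14050 protein-coding genes. A gene with 1 listed transcript, such as *DUSP1*, always passes. So does a gene with 2 unless they are equal, which covers *SPRY2*, *DUSP4*, *DUSP5* and *DUSP7*. Among genes with at least 2 listed transcripts the count was 6 of 9, against 67.3% of 11482 protein-coding genes. The most abundant transcript was protein-coding in all 10, as it was in 87.1% of protein-coding genes. By type, 27 of the 35 transcripts were protein-coding, 7 were processed transcripts and 1 had a retained intron. No transcript annotated to undergo nonsense-mediated decay was listed for any of the 10, whereas such transcripts made up 9.86% of those of protein-coding genes. Retained-intron transcripts made up 17.2% of the transcripts of protein-coding genes and 2.86% of those of the 10 genes. The 10 genes had a median of 2.5 listed transcripts, against 4 in protein-coding genes, and these shares by type were not matched for that number. Whether the annotation holds nonsense-mediated decay or further retained-intron transcripts for these 10 genes was not checked.

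By reads, transcripts outside the protein-coding class held 7.20% of the counts of the 10 genes and 12.4% of those of all protein-coding genes. Without *DUSP4*, which has no such transcript, the share was 12.2%, and without *DUSP6* it was 4.66%. Of the 10 genes, 6 had such a transcript and the other 4 (*SPRY2*, *DUSP1*, *DUSP4* and *DUSP7*) had none. These 4 had only 1 or 2 listed transcripts, and in other protein-coding genes with as many the median share was also 0%. By family the share was 20.9% in the SPRED genes, 7.59% in the sprouty genes and 5.34% in the phosphatase genes. Genes of 1 family differed widely. The share ran from 0.736% in *SPRED2* to 41.2% in *SPRED1*, from 0% in *SPRY2* to 23.6% in *SPRY1*, and among the phosphatase genes from 0% to 22.0% in *DUSP6*. The family values therefore do not describe each gene in them. As all of these are single pooled values, no test of a difference between families was possible.

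Other genes of the pathway were taken from 3 lists. Of 9 further sprouty, SPRED and MAP kinase phosphatase genes, 7 were listed, and *SPRY3* and *DUSP9* had no row. Their totals ran from 18.5 for *DUSP2* to 1939 for *DUSP3*, with a median of 636. One gene of the RAS to ERK core list is not reported here, and the other 16 were all listed, with totals from 408 for *KSR1*, a scaffold of the pathway, to 10637 for *MAP2K2*, which encodes MEK2, and a median of 1462. The 9 ERK-induced genes were all listed and ran from 187 for *FOS* to 17349 for *CCND1*, which encodes cyclin D1, with a median of 6656. The 10 feedback genes had a median total of 1880, between the medians of the core and of the induced genes, and their ranges overlapped. These are numbers of reads and not levels per length, which cannot be given here. *FOSL1* is on both the list of induced genes and that of mesenchymal-like markers. One transcript held over 50% of the gene total in 7 of the 7 listed relatives. This was so in 13 of the 16 core genes reported, 6 of the 9 induced genes and 73.3% of all protein-coding genes. Genes with 1 listed transcript, such as *DUSP2*, always pass, as nearly do those with 2, such as *DUSP8* and *DUSP16*. The counts were not matched for the number of listed transcripts.

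**Figure D4:**
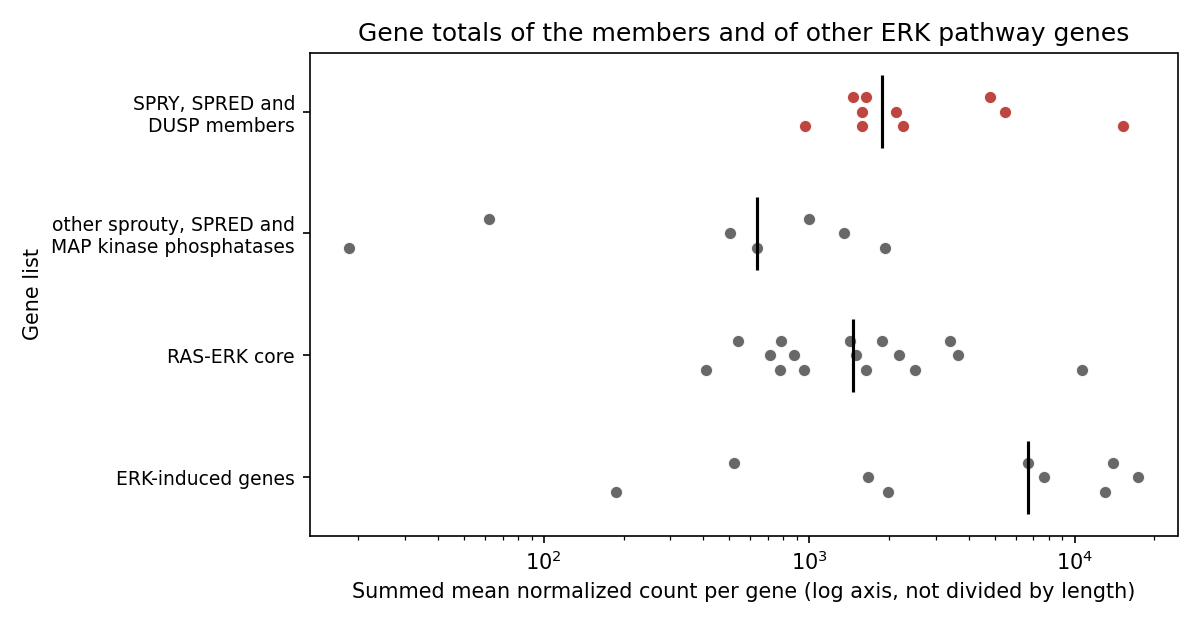
Sum of the mean normalized counts of each listed gene (log axis, not divided by length), for the 10 feedback genes (red) and 3 lists of other ERK pathway genes (grey), with a black line at each median. The members span 966 to 15242.5 and overlap with every other list.

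Promoter windows in RefSeq (GRCh38.p14, 250 bases before to 50 after a start site) were at hand for 8 of the 10 genes, in 12 windows, with no entry for *DUSP4* and *DUSP5*. Their median GC content was 64.0%, against 58.7% over all 35116 windows. They were searched on both strands for the letters of motifs bound by factors downstream of ERK and cAMP signalling. The cAMP response element TGACGTCA occurred in 1 of the 12 windows and in 1.85% of all windows, the ETS motif CCGGAAG in 1 and in 10.3%, and the AP-1 motif TGAGTCA in 1 and in 4.95%. The matches are printed to place each motif in its gene, with the motif in capitals and the gene's strand read 5′ to 3′. They are descriptions of the letters and not of factor binding. The motif of *DUSP1* begins 125 bases before the start site, in the stretch chr5:172771305-172771328 (minus strand). In *SPRY1* it begins 67 bases before the second start site, in chr4:123398311-123398333 (plus strand). In *SPRED2* it reads as the reverse complement and begins 6 bases before an internal start site, in chr2:65366770-65366792 (minus strand).
DUSP1, cAMP response element: agggcgggTGACGTCAccgccccg
SPRY1, ETS motif: ctccgcagCCGGAAGggggccgc
SPRED2, AP-1 motif: ccctcggaTGACTCAtccggtac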

How the data were processed

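RIP-seq libraries (2 IP-YTHDC1, 2 input) were grouped by the sample labels. The authors used STAR (version 2.7.2b) for mapping to GENCODE transcripts (GRCh38) and RSEM (version 1.2.31) for reads per transcript, removed transcripts with few reads, and ran RUVSeq against batch effects and then DESeq2. Versions are from the submitters' processing notes. By the paper's methods the read minimum had to be met in only part of the libraries. A transcript could therefore be listed through the IP or the input alone. The authors deposited 1 table. Its deposited signal column gives 1 pooled value per transcript, the mean of the normalized counts in the 4 libraries. Its other numeric columns hold the authors' own comparison (log2 fold change, standard error, p-value and adjusted p-value) and were not used. Depth per library is unknown, so no interval or floor is given, and the planned test of IP against input was not run. A transcript without a row is called not listed, which is not the same as absent.

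Here the means were summed per gene identifier, divided among transcripts, and ranked by the percentage of genes or transcripts with a lower value, with python 3.11.15, numpy 2.4.6, pandas 2.3.3 and matplotlib 3.10.9. The steps were checked on made-up tables with known shares. The 10 genes and the lists were chosen with earlier results of these data known, and 1 gene of the core list is not reported here. All 10 genes are named, each with its most abundant transcript, those with at least 10% of the gene total and the most abundant one that is not protein-coding. RefSeq (GRCh38.p14) gave positions of all 10 genes and promoter windows of 8. Alternatives were minimum means of 10 and 100, protein-coding transcripts alone, a 75% majority and other reference sets of genes. In 1 further setting nonsense-mediated decay transcripts were counted with the protein-coding ones.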

Additional observations from a re-analysis of the deposited data

How the results depend on the processing

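For 4 summary values (35 listed transcripts, 7 genes with a majority transcript, 7.20% of counts outside protein-coding transcripts and a median percentile of 83.3 for the gene totals), 14 alternatives were computed, of which 11 stayed within 1.5 times the reported value. The other 3 concern the share of counts outside protein-coding transcripts. It was 3.11% as the median of the genes' own shares, and, in settings chosen after seeing the data, 12.2% without *DUSP4* and 4.66% without *DUSP6*. Counting nonsense-mediated decay transcripts as protein-coding, 1 of the 11, could not change the share, as none was listed for these genes. When transcripts needed a mean of at least 100 normalized counts, 25 were left, and with a 75% majority, 5 genes. The median percentile was lowest, at 72.1, among genes with a total of at least 100. As percentiles end at 100, the value of 83.3 could change by 1.5 times only by falling.

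No paired analysis was possible because the table holds 1 pooled mean per transcript and no value per library. For the same reason no replicate was left out. Division by length was not run, since no transcript lengths were used here.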

Other observations

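Some other genes of the ERK pathway, singled out after their values were seen, had most of their reads outside protein-coding transcripts. Over all 14050 protein-coding genes the median share outside such transcripts was 5.42%. How many of those genes had most of their reads there was not computed, so no contrast with the 10 feedback genes is drawn. In *MAP2K1*, which encodes MEK1, the retained-intron transcript MAP2K1-202 was the most abundant and held 57.7% of the gene total of 1881. In *SHOC2*, a scaffold of RAF activation, the processed transcript SHOC2-206 held 53.5% of 879. These were the 2 of the 16 core genes reported whose most abundant transcript was not protein-coding. Over all protein-coding genes the most abundant transcript was protein-coding in 87.1%. Transcripts outside the protein-coding class also held 57.4% of the reads of *BRAF*, over 10 listed transcripts, and 56.6% of those of *CCND1*. The most abundant transcript of *BRAF*, BRAF-204, is protein-coding and held 21.0%. These are pooled values with no replicate error.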
